A study of Mus musculus with 9 samples.

Results

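The ISG15 conjugation system is described here by 5 mouse genes, Isg15, Uba7, Ube2l6, Herc6 and Usp18, matched by gene symbol among the 24411 genes of each count file. All 5 were found and all 5 passed the filter on low counts. The libraries came from primary microglia, the resident macrophages of the brain, grown from whole brains of 3-day-old ICR mouse pups, an outbred stock. Mixed glia were cultured, microglia were shaken off, plated and exposed for 4 h to 1 µM R848, to 100 U/ml IFN-α, or to both agents together. R848 (resiquimod) activates TLR7, a receptor for RNA in endosomes, and IFN-α belongs to the type I interferons. Each of the 3 groups held 3 libraries, and cells in every group had received at least 1 agent, so no value below is an effect against untreated cells.

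ISG15 is a ubiquitin-like protein that interferon induces and that cells attach to other proteins, a step called ISGylation. Uba7 is its activating enzyme (E1), Ube2l6 its conjugating enzyme (E2) and Herc6 the main ligase (E3) in mice, while Usp18 removes ISG15 from its targets. Usp18 also binds the interferon receptor chain Ifnar2 and dampens signalling there, so the system holds a brake as well as a modifier. The count files measure transcripts, not conjugates.

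The promoter of Isg15 is shown because it alone among the members with a RefSeq promoter entry, Isg15, Uba7, Ube2l6 and Herc6, held the core of the interferon-stimulated response element. This element is the DNA motif bound by a complex that includes Stat2 and Irf9. The capitals in the 120 bases just upstream of the transcription start, written 5′ to 3′ on the gene's strand (minus strand, GRCm38.p6, chr4:156200819-156200938), mark 3 overlapping matches.
Isg15: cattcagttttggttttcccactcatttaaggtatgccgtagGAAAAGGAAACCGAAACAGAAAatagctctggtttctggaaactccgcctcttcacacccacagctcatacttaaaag
The core searched was GAAA, any 2 bases and GAAA again, on both strands, in windows of 300 bases around each start. The matches began 78, 72 and 66 bases before the start, and 1131 of 32851 promoters in the table (3.44%) held at least 1 match. The core of the gamma-activated site, TTCNNNGAA, was in none of the 4 members' windows and in 8.30% of all promoters. A match is a description of the letters and does not show that a factor bound there. The search took exact matches only, so a missing match does not show that a promoter lacks such an element.

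The genes lie on 4 chromosomes (GRCm38, GENCODE mouse release 21). Isg15 is at chr4:156199424-156200818 on the minus strand with 2 merged exons, and the others are on the plus strand. Uba7 is at chr9:107975505-107984060 (14 merged exons), Ube2l6 at chr2:84798828-84810335 (5), Herc6 at chr6:57581000-57664632 (21) and Usp18 at chr6:121245906-121270917 (11). Gm20661 overlaps exons of Uba7 and Gm45193 exons of Herc6 on the same strand, and neither has a row in the count files, so reads from them could count for the members. Transcripts of Ube2l6 share stretches of at least 200 bases at 90% identity or more with Ift46, Smchd1, D10Wsu102e and 2810429I04Rik, so its counts are uncertain where reads could be shared. Isg15 shares 482 bases at 95.2% identity with AC151275.1, which has no row in the count files.

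Gene counts per library ran from 2505941 to 6005578, and the deepest library was replicate 3 of the combined group. The labels do not say whether replicates came from separate cultures, so the p-values cover only library-to-library spread, which may be technical. Markers of microglia such as C1qa, C1qb and Trem2 were present in every library, but the homeostatic markers P2ry12 and Tmem119 were low, P2ry12 at 24, 346 and 92 counts and Tmem119 at 38, 25 and 5 counts over the R848, IFN-α and combined libraries. Astrocyte markers were present too, all 10 of them in each group, and their summed level was 1479 to 1734 CPM in the R848 group, 1171 to 1476 CPM in the IFN-α group and 2411 to 3477 CPM in the combined group. The 12 microglial markers summed to 2599 to 2938, 4295 to 4664 and 2919 to 3204 CPM. Over all libraries the sums were 429 to 552 CPM for 8 oligodendrocyte markers, 98.9 to 127 for 6 neuronal markers, 88.7 to 216 for 6 fibroblast markers and 17.1 to 65.4 for 6 endothelial markers, the last lowest with R848. Changes in the members are those of the whole preparation. Fewer cells of a type and less RNA per cell cannot be told apart in such samples, and the part of cell makeup in the results was not tested.

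All 5 genes were lowest in the R848 libraries and 4.14 to 54.3 times higher in the IFN-α libraries. Isg15, the modifier itself, stood at 22.6, 22.5 and 21.6 CPM (counts scaled to a fixed library total with TMM factors) with R848, at 634, 599 and 639 CPM with IFN-α, and at 1050, 1100 and 1131 CPM with both. Usp18, the protease and brake, stood at 14.5, 18.4 and 23.1 CPM with R848, at 1013, 990.1 and 1037 CPM with IFN-α, and at 1043, 1033 and 1062 CPM with both. For both genes every R848 library lay far below every library that had received IFN-α. For Isg15 the 3 combined libraries also lay above the 3 IFN-α libraries, while for Usp18 those groups overlapped.

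The enzymes that charge and transfer ISG15 also had their lowest libraries in the R848 group. Uba7, the E1, stood at 26.0, 18.0 and 21.9 CPM with R848, at 332, 379 and 333 CPM with IFN-α, and at 281, 252 and 285 CPM with both. Its combined libraries all lay below its IFN-α libraries. Ube2l6, the E2, stood at 34.1, 34.8 and 28.4 CPM with R848, at 136, 134 and 133 CPM with IFN-α, and at 143, 133 and 122 CPM with both. Its combined libraries spread around the narrow IFN-α range. Herc6, the E3, stood at 27.2, 30.1 and 33.5 CPM with R848, at 602, 614 and 583 CPM with IFN-α, and at 670, 632 and 652 CPM with both. Its combined libraries were just above the IFN-α libraries, without overlap. The R848 values rest on 50 to 118 counts per gene and library.

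**Figure D1:**
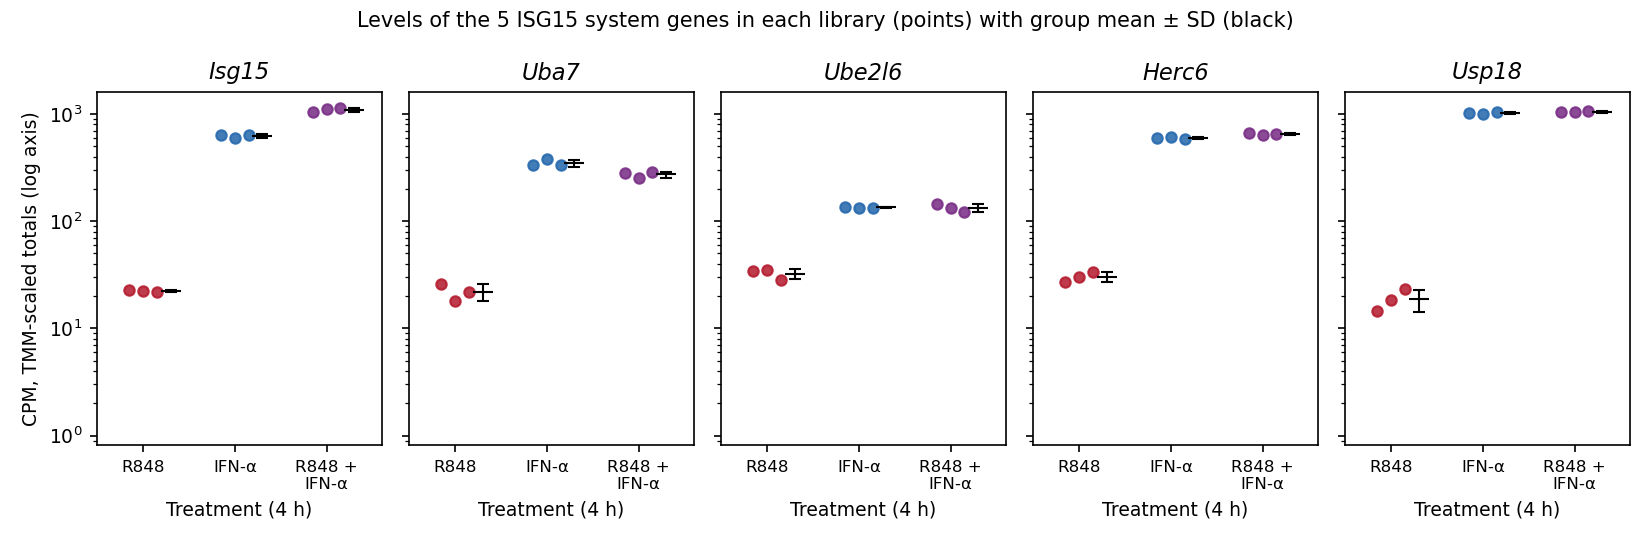
CPM of each gene (log axis) in the 9 libraries, as points by treatment, with the group mean ± SD in black. All 5 genes are lowest with R848, and only Isg15 and Uba7 differ between the IFN-α and combined groups past the test used below, Isg15 upward (624 to 1094 CPM) and Uba7 downward (348 to 273 CPM).

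R848 against IFN-α asks which agent went with the higher level. R848 went with the lower level of all 5 members, by edgeR's quasi-likelihood test at a Benjamini-Hochberg adjusted p under 0.05. Of the 11002 genes tested 37.4% were called, 19.0% lower and 18.4% higher. The groups did not overlap for any member, a pattern shown by 46.4% of all genes, 23.4% in that direction. The difference was smallest for Ube2l6, with a log2 fold change of -2.05 ± 0.11 (SE, adjusted p = 1.53e-15). It was widest for Usp18, at -5.76 ± 0.12 (adjusted p = 3.57e-26), a level 54.3 times higher with IFN-α (mean 18.6 ± 4.32 against 1013 ± 23.3 CPM, SD, n = 3 each). Usp18 was the 35th lowest of all genes tested in this comparison, and Ube2l6 the 388th.

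Between those ends, the levels with IFN-α were 28.0 times those with R848 for Isg15 (22.2 ± 0.520 against 624 ± 21.8 CPM), 19.8 times for Herc6 (30.2 ± 3.14 against 599.6 ± 15.6 CPM) and 15.7 times for Uba7 (22.0 ± 4.01 against 348 ± 26.7 CPM). Their log2 fold changes were -4.81 ± 0.10, -4.31 ± 0.10 and -3.98 ± 0.12, with adjusted p of 7.14e-26, 8.82e-25 and 4.63e-22 by the same test. The order of the fold changes was thus Usp18, Isg15, Herc6, Uba7 and Ube2l6, so the modifier and its protease differed most between the agents and the E2 least. The gaps between genes in this order were not tested.

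Adding IFN-α to R848 is read from the combined group against R848 alone. All 5 members rose, where 35.9% of all genes were called, 19.2% upward and 16.7% downward. The groups did not overlap for any of the 5, where 45.0% of all genes did not overlap, 22.6% higher and 22.4% lower. Usp18 was 56.0-fold higher (log2 fold change 5.81 ± 0.12, adjusted p = 4.11e-26, edgeR) and Isg15 49.2-fold higher (5.62 ± 0.10, adjusted p = 4.75e-27). Herc6 was 21.5-fold higher, Uba7 12.3-fold and Ube2l6 4.08-fold, with log2 fold changes of 4.43 ± 0.10, 3.63 ± 0.12 and 2.03 ± 0.11. Isg15 ranked 48th and Usp18 43rd from the highest of all genes tested. This comparison shares its R848 libraries with the one above, and its values are given side by side with it rather than as a second line of evidence.

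Adding R848 to IFN-α is read from the combined group against IFN-α alone, and here the members parted. Isg15 rose 1.75-fold (95% interval 1.57 to 1.96, log2 fold change 0.81 ± 0.08, adjusted p = 8.98e-10, edgeR), in 3 of 3 libraries above all IFN-α libraries. Uba7 fell to 0.785 of its IFN-α level (95% interval 0.685 to 0.899, log2 fold change -0.35 ± 0.10, adjusted p = 0.00512), in 3 of 3 libraries. In this comparison 33.2% of all genes were called, 18.5% up and 14.7% down, so 1 of 5 in each direction is near the background. Without IFN-α replicate 2, whose Uba7 level was the highest of all, the fall of Uba7 missed the threshold (log2 fold change -0.28, adjusted p = 0.0561).

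The remaining members did not pass the test between these groups. Their intervals cover the spread between libraries under TMM scaling and not the choice of scaling. The values under library totals alone, given below, fall outside them. Herc6 had a log2 fold change of 0.12 (95% interval -0.05 to 0.29, adjusted p = 0.281, edgeR), although its groups did not overlap, which 46.2% of all genes showed, 24.0% upward and 22.3% downward. Usp18 had 0.05 (-0.13 to 0.22, adjusted p = 0.736) and Ube2l6 -0.02 (-0.23 to 0.18, adjusted p = 0.897). With libraries scaled by their totals alone, which moved the median of all genes by -0.31, Herc6 and Usp18 had log2 fold changes of -0.19 and -0.27, neither of them called, and Ube2l6 was called lower at -0.33. Isg15 kept its rise (0.50, adjusted p = 0.00105) and Uba7 its fall (-0.66, adjusted p = 7.54e-05) under that scaling. In this comparison 6 of the 10 astrocyte markers rose and none fell, and 1 of the 12 microglial markers rose and 8 fell, and their part in the members' values was not tested.

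Isg15 was the member called above both single agents, by a test that takes the larger of its p-values against each (adjusted p = 3.65e-09), as were 7.33% of all genes tested. Herc6 and Usp18 had higher means in the combined group than in either single-agent group, but did not pass this test (adjusted p = 0.555 and 1). No member was called below both, where 2.82% of all genes were.

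**Figure D2:**
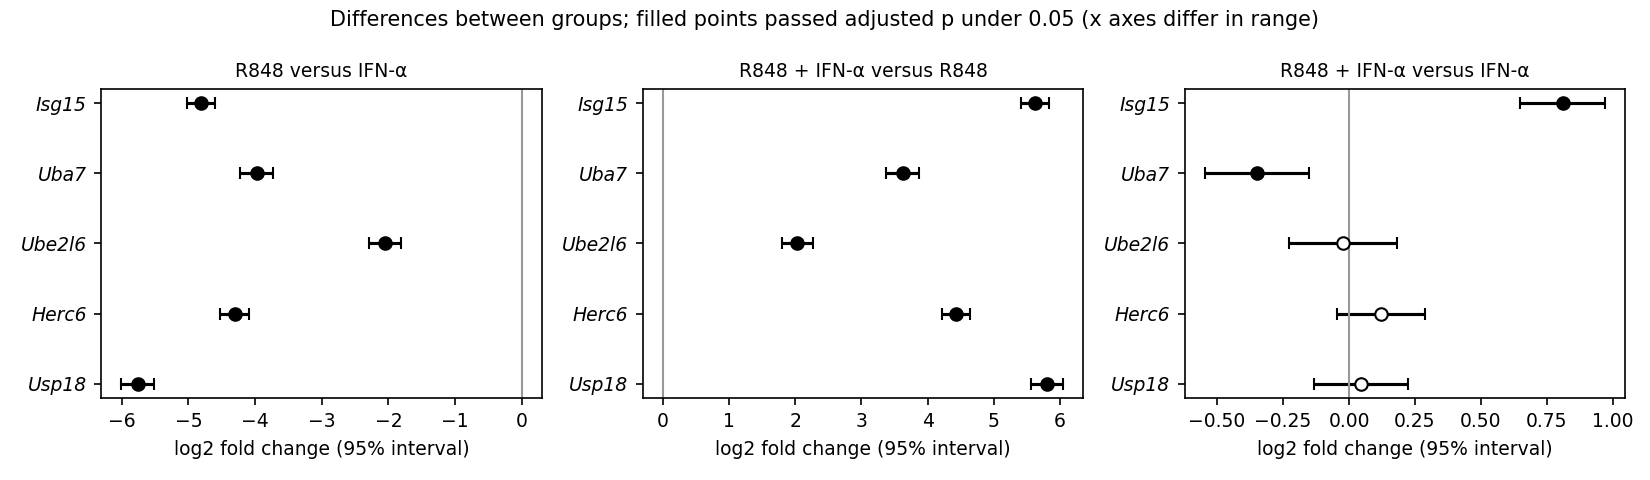
Log2 fold change with its 95% interval for each gene in the 3 comparisons, filled where the adjusted p was under 0.05; the x axes differ in range. All genes pass in the first and second panels, and Isg15 (0.81) and Uba7 (-0.35) pass in the third.

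Levels of different genes were compared per kilobase of merged exon. With R848 alone Isg15 averaged 29.4 CPM per kb, Ube2l6 16.3, Usp18 6.68, Uba7 3.29 and Herc6 3.25. With IFN-α Isg15 averaged 825 CPM per kb and Usp18 363, followed by Ube2l6 at 67.3, Herc6 at 64.5 and Uba7 at 52.0. With both agents Isg15 reached 1447 and Usp18 375 CPM per kb, with Herc6 at 70.1, Ube2l6 at 66.6 and Uba7 at 40.7. Ranked by this level among 10614 genes, Isg15 went from 1066th with R848 to 21st with IFN-α and 25th with both, and Usp18 from 4071st to 57th and 89th. The libraries of neighbours in these orders did not overlap, except for Uba7 and Herc6 with R848 and for Herc6 and Ube2l6 with both agents. The order of the 3 enzymes depends on the length used: with RefSeq transcript lengths it was Herc6 at 126, Uba7 at 109 and Ube2l6 at 86.2 CPM per kb with IFN-α, and Herc6 at 137, Uba7 at 85.3 and Ube2l6 at 85.2 with both, so Ube2l6 was no longer first among them with IFN-α.

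The level of each gene per kb was divided by that of Isg15 to describe the makeup of the system. Isg15 itself differs between all groups, so a gene that does not change also has a different ratio in each. The ratio of Ube2l6 to Isg15, as a geometric mean of 3 libraries, was 0.551 with R848, 0.0816 with IFN-α and 0.0459 with both. The corresponding ratios of Uba7 were 0.111, 0.0629 and 0.0281, and those of Herc6 were 0.110, 0.0782 and 0.0485. For these enzymes each ratio was highest with R848 and lowest with both agents, with no overlap between any groups, a pattern that 72.7% of the 11001 other genes tested showed as well. Usp18 differed in order, with ratios of 0.223 with R848, 0.440 with IFN-α and 0.259 with both.

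With R848 added to IFN-α, the ratio to Isg15 was lower by a factor of 2.24 for Uba7, 1.78 for Ube2l6, 1.70 for Usp18 and 1.61 for Herc6. For Ube2l6, Usp18 and Herc6, which were not called in this comparison, these factors restate the 1.75-fold rise of Isg15. Of the 12 comparisons of ratios, 11 had groups without overlap and a two-sided exact permutation p of 0.1, the smallest that 3 libraries against 3 can give, so none can reach 0.05 even before adjustment. Over all other genes tested the ratio to Isg15 did not overlap for 99.3% in R848 against IFN-α, 99.5% in both against R848 and 78.9% in both against IFN-α, so the members' count is near the background. The exception was Usp18 with both agents against R848, where the groups overlapped (p = 0.4, exact permutation test). The ratios do not depend on how libraries are scaled. They do depend on gene length: with RefSeq transcript lengths the ratios of Usp18 were 0.352, 0.694 and 0.408 and those of Uba7 0.232, 0.132 and 0.0589, in the same order by treatment.

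**Figure D3:**
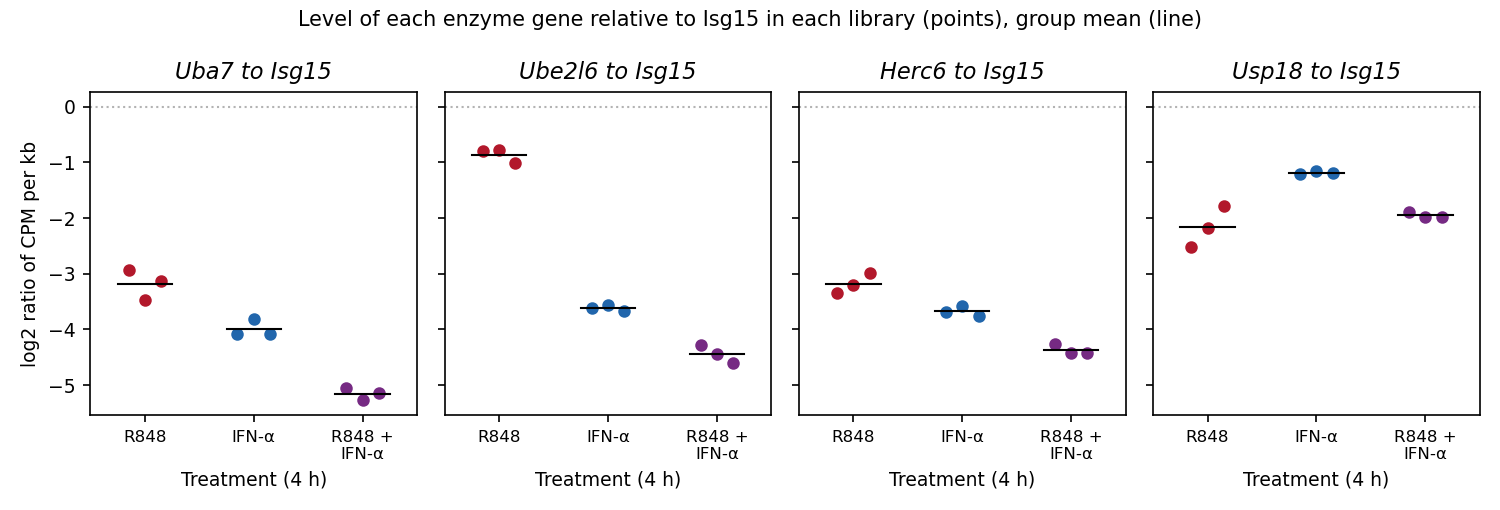
Log2 ratio of the level per kb of Uba7, Ube2l6, Herc6 and Usp18 to that of Isg15, one point per library and a line at each group mean; the dotted line marks equal levels. Uba7, Ube2l6 and Herc6 step down from R848 to IFN-α to both (Ube2l6 from -0.86 to -3.62 to -4.44), and Usp18 is highest with IFN-α (-1.18).

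Among themselves the members followed each other unequally over the 9 libraries. The root mean square difference between centred log2 CPM profiles was 0.37 for Uba7 and Herc6 and 0.45 for Isg15 and Usp18, and it was widest, at 1.78, for Ube2l6 and Usp18. Outside the system, of 9942 genes compared, the profiles nearest to Isg15 were those of Ifih1, an RNA sensor (0.190), Isg20, an exonuclease (0.194), and Ifit1, which binds viral RNA (0.207). The level of Ifih1 was 2.18-fold higher in the combined group than in the IFN-α group. Nearest to Uba7 were Rbl1, a relative of the retinoblastoma protein (0.0942), Trim14 (0.128) and Tmem140 (0.189), and all 3 had negative log2 fold changes in that comparison, from -0.54 to -0.40. Nearest to Ube2l6 were Sdc3, a syndecan (0.101), Ogfr, the opioid growth factor receptor (0.120), and Gadd45g (0.130). Herc6 was closest to Gbp8, a guanylate-binding protein (0.0718), Slfn5 (0.0723) and Irgm2 (0.133), and Usp18 to Phf11b (0.116), Ifit3 (0.132) and the Fc receptor gene Fcgr1 (0.236). These values describe likeness over groups that differ strongly and carry no test. The genes outside the system were picked for likeness over these same libraries, so a direction shared with a member follows largely from that choice.

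Of the other ligases and proteases reported to act on ISG15, 8 of 9 were tested. Counts of called genes in this list and those below are to be read beside the shares over all genes. With R848 against IFN-α 18.4% of all genes were higher and 19.0% lower. With both against R848 19.2% rose and 16.7% fell, and with both against IFN-α 18.5% rose and 14.7% fell. Trim25, an E3 ligase that also acts in RNA sensing, stood at 38.2 ± 2.56 CPM with R848, 111 ± 6.48 with IFN-α and 195 ± 10.6 with both (SD, n = 3). It was called in every comparison, and its rise of 0.82 ± 0.10 on the log2 scale when R848 was added to IFN-α (adjusted p = 5.01e-08, edgeR) was close in size to that of Isg15. Arih1, which is known in human cells as an ISG15 ligase, was at 178, 174 and 218 CPM and rose 1.25-fold with both agents against IFN-α (adjusted p = 0.00604). Usp16 rose 2.29-fold in the same comparison (adjusted p = 8.56e-09), and Usp2 fell to 0.323 of its IFN-α level (adjusted p = 9.27e-09). Over the 8 tested genes, 3 were higher and 2 lower with R848 against IFN-α, 3 rose and 1 fell with both against R848, and 5 rose and 1 fell with both against IFN-α, with median log2 fold changes of 0.05, 0.01 and 0.35 against -0.01 for all genes in the last of these.

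Most of the 8 listed transcription factors of the interferon response also differed between the single agents. Of these, 7 were lower in the R848 than in the IFN-α group, and 7 rose and 1 fell (Irf3) with both against R848. Stat2 stood at 22.3 CPM with R848, 293 with IFN-α and 310 with both. With both against IFN-α, 3 of the 8 rose and 1 fell. The rises were those of Irf1, Irf8 and Irf7 (log2 fold changes 1.41, 1.44 and 0.22, adjusted p = 2.58e-14, 4.31e-13 and 0.0301, edgeR). Irf9 had 0.25 and was not called (adjusted p = 0.0524). Irf7, which drives interferon gene transcription, stood at 24.1, 901 and 1049 CPM.

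Among the partners of Usp18 at the interferon receptor, Stat2 is given above. Ifnar1, the other receptor chain, was at 334 CPM with R848, 142 with IFN-α and 377 with both, and it rose 2.65-fold when R848 was added to IFN-α (adjusted p = 1.93e-13, edgeR). Ifnar2, the chain that Usp18 binds, was at 105, 94.7 and 109 CPM and was not called in any comparison (adjusted p from 0.150 to 0.756). Itgal, a chain of the integrin LFA-1 through which secreted ISG15 can act, was at 132, 31.3 and 95.8 CPM and rose 3.08-fold with both against IFN-α (adjusted p = 9.47e-11). Skp2, a part of the ubiquitin ligase that degrades Usp18, fell with both agents against R848 (log2 fold change -1.09, adjusted p = 0.0022). Of these 6 genes with Stat2 and Itgb2, 2 were higher and 1 lower with R848 against IFN-α, 1 rose and 2 fell with both against R848, and 2 rose with both against IFN-α.

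Transcripts of 16 genes whose proteins are reported to be ISGylated were also counted. With R848 against IFN-α 3 of these transcripts were higher and 7 lower. With both against R848 9 rose and 2 fell, and with both against IFN-α 6 rose and 2 fell. The RNA sensor genes Ifih1 and Ddx58 were 46.1-fold and 23.6-fold higher with both agents than with R848, and the antiviral gene Ifit1 44.4-fold higher. Ddx58 had only 30 counts over the R848 libraries.

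The ubiquitin, NEDD8, SUMO and UFM1 systems use the same chain of E1, E2 and E3 steps. Against R848 alone their genes had median log2 fold changes from -0.28 to 0.18 with both agents, while against IFN-α alone several of them differed by more than most members did. The E1 genes other than Uba7 numbered 9, all tested: 2 rose and 1 fell with both agents against R848, with a median log2 fold change of -0.02. Uba1, the main ubiquitin E1, stood at 170, 152 and 232 CPM and rose 1.52-fold with both against IFN-α (adjusted p = 6.58e-06, edgeR), opposite in direction to Uba7. Of 36 other Ube2 genes 29 were tested, and with both against R848 6 rose and 8 fell (median -0.08). Ube2l3, the closest relative of Ube2l6, was at 154, 189 and 184 CPM, a rise of 0.26 on the log2 scale with both against R848 (adjusted p = 0.0424). Of 55 other Usp genes 41 were tested, and 11 rose and 7 fell in that comparison (median -0.02). Over all genes tested 19.2% rose and 16.7% fell there.

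The widest rises in these families with both against R848 were those of Usp25 (26.3 to 126 CPM, 4.82-fold), Ube2e1 (51.7 to 142 CPM, 2.75-fold) and Usp42 (15.4 to 42.9 CPM, 2.74-fold), all called and all below those of the members except that Usp25 passed Ube2l6 (4.08-fold). With both against IFN-α, 9 of the 29 Ube2 genes rose and none fell (edgeR), led by Ube2z (2.02-fold) and Ube2f, a NEDD8 E2 (1.98-fold). Over all genes tested 18.5% rose and 14.7% fell there. The 4 tested ubiquitin genes had 2 that rose in each combined comparison and none called between the single agents. The NEDD8 list of 8 had 2 higher with R848 against IFN-α, 1 lower with both against R848 and 2 higher with both against IFN-α. The SUMO list of 16 had 4 higher and 2 lower, 3 higher and 1 lower, and 1 higher and 2 lower in the same order, with Senp7, a SUMO protease, at 11.6, 32.9 and 23.0 CPM. The UFM1 list, with 6 of 7 tested, had 2 higher, 2 lower, and 1 higher and 3 lower, with Ufsp2 at 33.4, 29.6 and 18.2 CPM. Of the other modifiers, 7 of 8 were tested and 2 were lower with R848 and 2 with both, each against IFN-α, among them Atg7, the autophagy E1 (-0.81 on the log2 scale with both). Ubd, a ubiquitin-like protein that cytokines induce, was not tested, with 1, 1 and 21 counts per group.

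Taking all 165 listed genes together, 140 were tested, and 40 rose and 22 fell with both against R848 and 35 rose and 16 fell with both against IFN-α. With libraries scaled by their totals alone these were 19 and 66, and 11 and 45, and over all genes the split with both against R848 went from 2112 higher and 1835 lower to 1173 and 4984. With upper-quartile factors the splits were 29 and 41 for the lists and 1715 and 2861 over all genes. Directions within these lists therefore depend on the scaling where changes are small, unlike the rises of the 5 members against R848, which kept their call under every scaling tried.

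**Figure D4:**
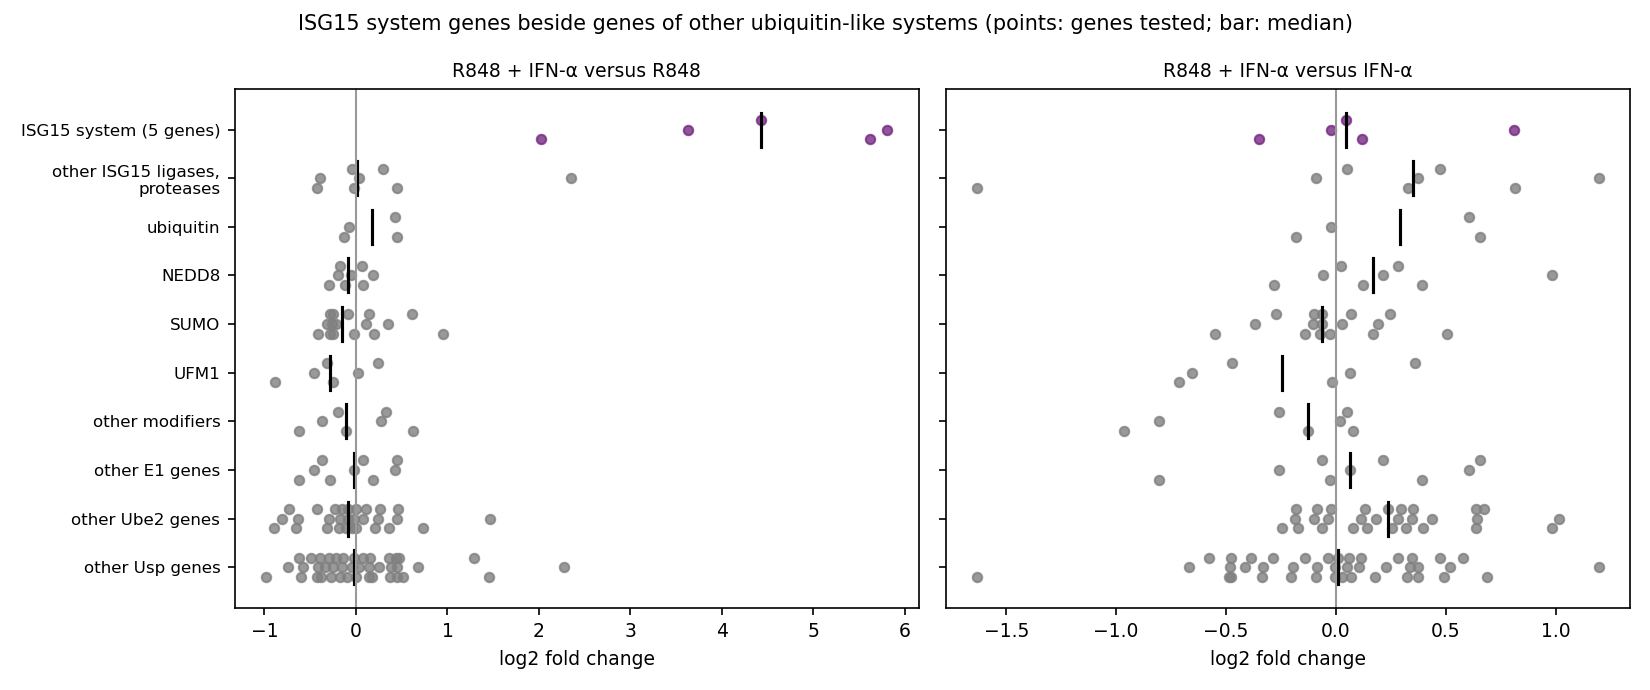
Log2 fold changes of the 5 genes (purple) beside the tested genes of the other ligases and proteases and of other modifier systems (grey), with the combined group against R848 on the left and against IFN-α on the right; bars mark medians. On the left the 5 genes sit from 2.03 to 5.81, with the medians of the lists drawn near 0 (the transcription factors are not drawn), and on the right they spread around 0 with Isg15 at 0.81.

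Transcripts of the 6 interferon genes looked at were scarce among the counted reads. Ifnb1 had 1 count over the R848 libraries, 2 over the IFN-α libraries and 13 over the combined libraries. Ifna2 had 0, 1 and 1 and Ifng 0, 0 and 1, and Ifna1, Ifna4 and Ifna5 had none. These counts are not scaled for depth, and the combined group held the deepest library. Multi-mapping reads were left out, so a gene without counts is not shown to be silent.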

How the data were processed

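RNA was sequenced from 9 libraries of treated primary microglia in 3 groups of 3, after removal of ribosomal RNA and with directional libraries. The authors deposited raw counts per gene in STAR's layout, unstranded and for each strand. Per the submitters' processing notes, Trimmomatic 0.33, STAR 2.5.1, CASAVA 1.8.2, DESeq2 and the build mm10 were used, with no roles given. Which gene models were counted was not given in the sources used here. Reverse-strand counts were used, since forward-strand counts made up 1.09% to 1.50% of both. Rows that name no gene were left out: no-feature reads made up 39.3% to 44.4%, multi-mapping reads 7.22% to 8.51% and unmapped reads 19.8% to 26.3%. Rn45s, a ribosomal transcript, held 13.3% to 26.1% of gene counts.

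Genes were filtered with filterByExpr (minimum count 10, total 15), which left 11002. Libraries were scaled with TMM and all 9 were fitted by group with edgeR 4.0.16 (robust quasi-likelihood F test, limma 3.58.1, R 4.3.3), with Benjamini-Hochberg adjustment over all genes tested and a threshold of 0.05. The biological coefficient of variation was 0.0955. A gene was above or below both single agents where the larger of its 2 p-values passed after adjustment. CPM used the TMM-scaled totals, and levels per kb used merged exons of GENCODE release 21. The SE is the log2 fold change divided by the root of its F statistic. Copies were searched with blastn 2.17.0.

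The members, the lists of genes and the naming rule were chosen with earlier results of these data known. The rule named the members, up to 4 called genes per list and comparison with the widest change, fixed genes such as Trim25 and Ifnar2, and the 3 genes nearest each member in centred log2 CPM (prior count 2, at least 5 CPM in the highest group); a single gene from a list may be given by levels only. Alternatives were DESeq2 1.42.0, other scalings and filters, unstranded counts, no Rn45s, a replicate block, only the groups compared, each library left out, and RefSeq transcript lengths, the last chosen after seeing the data. Each library counted as 1 sample. Replicate pairs differed by more than sampling noise (chi-square per degree of freedom 1.92 to 6.27), a spread that may be technical. The design text mentions a control group, not analysed here. A few listed genes are not reported here by name.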

Additional observations from a re-analysis of the deposited data

Results flagged for a closer look

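Counts on the strand opposite to each gene lie outside the measurement used above and were above the 3 counts that a count of 0 allows for all 5 members. Over the 9 libraries there were 23 such counts for Isg15, 20 for Uba7, 16 for Ube2l6, 56 for Herc6 and 56 for Usp18. These were 0.139%, 0.336%, 0.576%, 0.469% and 0.290% of the counts on both strands, each below the share over all genes of a library, which ran from 1.09% to 1.5%. Gm44148, a noncoding RNA, is annotated on the strand opposite to Usp18 and shares 124 exonic bases with it.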

How the results depend on the processing

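The calls of all 5 members in R848 against IFN-α and in both agents against R848 held in each of 19 alternatives. With both against IFN-α, Isg15 stayed called in all 19 (log2 fold change 0.50 to 0.84) and Uba7 in 18. Leaving out 1 library at a time, Uba7 ran from -0.384 to -0.284 (adjusted p over its alternatives from 7.54e-05 to 0.0561, missing without IFN-α replicate 2) and Ube2l6 from -0.076 to 0.041 (positive without combined replicate 3). Falls in the lists with both ran from 14 to 22 against R848 (14 without R848 replicate 3) and from 10 to 18 against IFN-α (10 without combined replicate 2), and genes below both agents from 173 to 374, where the main count was 310 (198 without combined replicate 2 and 173 without combined replicate 3).

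With DESeq2 the lists had 19 genes higher with R848 against IFN-α, 13 lower with both against R848 and 9 lower with both against IFN-α, and 185 genes were below both. Upper-quartile factors moved the median of all genes by -0.13 with both against R848, gave 2861 lower there (41 in the lists) and 552 below both, and turned Usp18 with both against IFN-α to -0.038 (adjusted p = 0.769). Library totals alone moved the medians by -0.39 and -0.31 with both against R848 and IFN-α. They gave 1173 higher and 4984 lower (lists 19 and 66), then 1044 higher and 3768 lower (lists 11 and 45), with 301 above and 1783 below both. Against IFN-α, Ube2l6 was then called at -0.33 (adjusted p = 0.0422, from 0.0422 to 0.959 over its alternatives), Herc6 turned to -0.19 (adjusted p = 0.228) and Usp18 to -0.27 (adjusted p = 0.0982). Apart from the scaling itself, the cause of these shifts was not tested.

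By library totals alone, mean CPM with R848, IFN-α and both was 24.8, 659 and 931 for Isg15, 36.1, 142 and 113 for Ube2l6 and 33.9, 633 and 555 for Herc6. Uba7 was then at 232 with both, and Usp18 at 1071 with IFN-α and 890.5 with both. Without Rn45s, which enlarges every CPM, they were 27.2, 769 and 1345 for Isg15, 27.0, 429 and 335 for Uba7, 39.8, 166 and 163 for Ube2l6 and 37.1, 739 and 801 for Herc6, with Usp18 at 1249 and 1285 with IFN-α and both. With RefSeq lengths the log2 ratios to Isg15 in that order were -2.11, -2.92 and -4.09 for Uba7, -0.50, -3.26 and -4.09 for Ube2l6, -2.22, -2.71 and -3.40 for Herc6 and -1.51, -0.53 and -1.29 for Usp18.

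Deviations of same-numbered libraries from their group means correlated from -0.10 to 0.06. Without a like value for libraries of different numbers, this does not show whether replicate numbers pair the libraries. A fit with the replicate number as a block changed no member's call, with Isg15 at 0.81 and Uba7 at -0.35 (adjusted p = 0.00433) with both against IFN-α, and gave 2077 genes higher and 1624 lower there. Depth limits the R848 levels, each of which rests on at most 118 counts per library.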
